A study of Sus scrofa with 12 samples.

Results

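At a small set of DNA positions in pig longissimus muscle, several different RNAs were listed that were each made on another chromosome. The libraries pool many nuclei, so RNAs listed at the same bin need not have met there in the same nucleus. GRID-seq ligates RNA to the DNA beside it in fixed nuclei and lists, for each RNA, the 1-kb DNA bins where its background-corrected signal reached 0.02 or more. A bin was kept when at least 3 different RNAs, each from a gene on another chromosome (trans RNAs), were listed there in at least 2 of the 4 GRID-seq libraries. The rule kept 7155 bins of the 1259435 bins with a trans RNA in any library, and of the 463974 bins with a trans RNA in at least 2 libraries, which are the bins used for comparison below. The bins were thus chosen by the number of trans RNAs listed in the same libraries, and that number and the signal of those RNAs are given as description. RNAs were listed on chromosomes 1 to 18, and DNA bins also on chromosomes X and Y, with none on Y in at least 2 libraries.

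The libraries came from longissimus muscle of 2-week-old piglets of Large White (LW), a lean commercial breed, and Meishan (MS), a local Chinese breed. Each breed had 2 GRID-seq libraries and 2 BL-HiChIP libraries, in which DNA contacts are captured with an antibody against H3K27ac and called as loops between 5-kb anchors. The study's methods name a pair of male piglets for the breeds, so the duplicates of a breed may share an animal and p-values between breeds then measure only the spread between duplicates. No allele, transgene or treatment separates the groups.

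Most RNA found on chromatin is nascent and stays around its own gene, while some RNAs are found far away on other chromosomes. H3K27ac marks active promoters and enhancers, and loops between marked anchors join such elements. U4 and U5 are small nuclear RNAs of the spliceosome, the machine that removes introns from nascent transcripts. Skeletal muscle transcribes very long genes of the contractile apparatus, such as those of titin (TTN) and nebulin (NEB).

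The GRID-seq libraries held 7172517 to 9943666 RNA reads over 518 to 678 listed RNAs, and 470725 to 692884 trans RNA-bin pairs. Trans pairs made up 61.2% and 54.6% of all pairs in LW against 74.1% and 70.6% in MS. Between 33353 and 57028 loops were listed per BL-HiChIP library. Of 11 muscle fibre markers 9 were listed in every GRID-seq library, with 13.4 to 17.4% of the reads, against 0.0923 to 0.150% for 2 or 3 of 5 fibroblast markers. No adipocyte, endothelial, immune, satellite cell or Schwann cell marker was listed. Neighbouring bins are not independent, since a trans RNA was usually listed over a run of adjacent bins (23 kb was the commonest length and 28 kb the median). Bins that started less than 23 kb apart were therefore also grouped, which gave 371 regions with a median of 18 bins and a range of 1 to 203.

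Of the 7155 bins, 5583 reached exactly 3 trans RNAs in 2 libraries, 1192 reached 4, 306 reached 5, 52 reached 6 and 22 reached 7. Just outside the rule lay 36510 bins that reached 2, and another 35765 bins had 3 or more trans RNAs in 1 library only. At the threshold, the median summed trans signal of bins with exactly 3 was 0.721 and 1.81 in LW against 2.98 and 3.24 in MS, beside 0, 0.666, 1.51 and 1.64 for bins with 2. The signal is relative to an RNA's own reads, so that an RNA with fewer reads carries more signal per contact.

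The MS libraries supplied most of the bins. LW replicate 1 had 3 or more trans RNAs at 1551 of the 7155 bins, LW replicate 2 at 3366, MS replicate 1 at 5498 and MS replicate 2 at 5916. The same order held over all bins of a library, with 3166, 8037, 16321 and 24572 bins of 3 or more trans RNAs, which is 0.746, 1.76, 3.68 and 4.48% of its bins with a trans RNA. Both MS libraries and neither LW library met the number at 3057 bins (42.7%), both LW libraries and neither MS library at 218 (3.05%), and all 4 libraries at 338. In 1345 bins 3 libraries met it and in 5472 bins 2 did. The count therefore rests on the MS libraries, since leaving out MS replicate 1 left 3140 bins by the same rule and leaving out MS replicate 2 left 2859. The number of trans pairs also differed between libraries, as given above, and its part in these counts was not tested.

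Bins chosen in one breed were then read in the other. The 819 bins with 3 or more trans RNAs in both LW libraries had 3 or more in MS replicate 1 at 49.0% and in MS replicate 2 at 65.7%, whereas 4.15% and 5.49% of all bins with a trans RNA in both LW libraries did. The 4477 bins of both MS libraries reached 3 in LW replicate 1 at 12.8% and in LW replicate 2 at 26.4%, against 0.981% and 2.53%. Many-RNA bins of one breed were thus more often many-RNA bins in the other than bins with any trans RNA were. Within a breed, 25.9% of the bins of LW replicate 1 were found again in LW replicate 2 and 10.2% in the reverse reading, beside 1.08 and 0.494% of all bins with a trans RNA. For MS, 27.4% of the bins of replicate 1 were found in replicate 2 and 18.2% in the reverse reading, beside 4.21 and 2.51%.

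Chromosome 12 held more of the bins than any other chromosome. It carried 2082 bins (29.1%) in 82 regions but 6.23% of the bins used for comparison, and 7.20% of its own bins with a trans RNA met the rule. The lead was seen in LW replicate 2, MS replicate 1 and MS replicate 2, where it held 1223, 1511 and 1814 of the bins, while in LW replicate 1 it held 352 beside 358 on chromosome 6. Counted as regions in place of bins, its share was 22.1%. Chromosome 6 followed with 847 bins and chromosome 14 with 580. Only 61 bins lay on chromosome 13, 41 on chromosome 16, 40 on chromosome 8, 36 on chromosome 10, 22 on chromosome 11 and none on chromosome X, where 2830 bins had a trans RNA in 2 libraries.

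**Figure D1:**
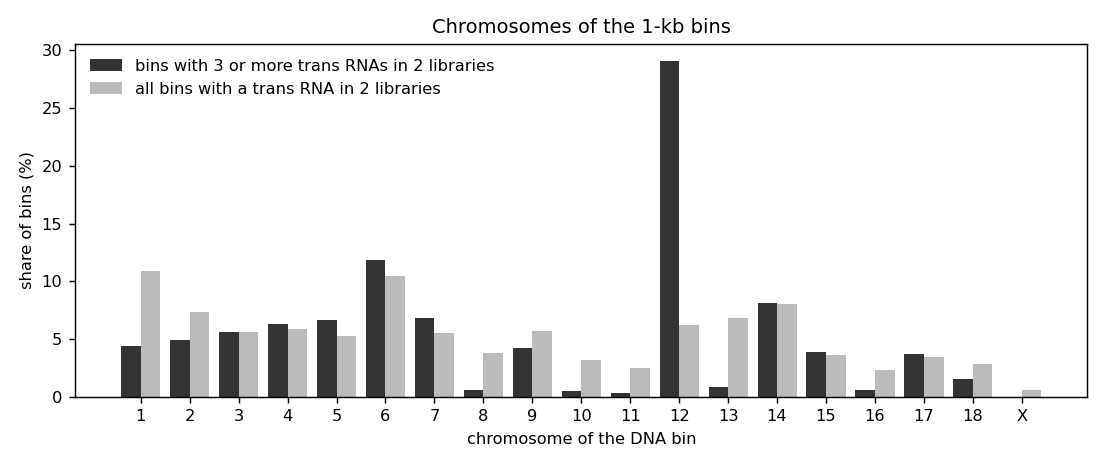
Share of 1-kb bins (%, y axis) on each chromosome (x axis) for bins with 3 or more trans RNAs in 2 libraries (dark) and for all bins with a trans RNA in 2 libraries (grey). Chromosome 12 holds 29.1% of the dark bars' bins and 6.23% of the grey, while chromosomes 8, 10, 11, 13 and 16 hold under 1% of the dark.

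Chromosome 12 is also gene-rich, with 18.2 protein-coding genes per Mb where the other autosomes had 4.08 to 13.2. Across the 18 autosomes the number of many-RNA bins per Mb rose with protein-coding genes per Mb (Pearson's r 0.782, Spearman's rho 0.862), also without chromosome 12 (0.796 and 0.836), and with loop anchors per Mb (0.860 and 0.756). These are descriptions over chromosomes that share the libraries and the RNAs, and no p-value is given. The order was not that of gene density throughout, since chromosome 2 with 13.2 genes per Mb had 2.33 such bins per Mb and chromosome 12 had 33.8.

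Most of the bins lay in genes and on active chromatin contacts. An annotated gene covered 76.5% of them, beside 65.9% of all bins with a trans RNA in 2 libraries, and a protein-coding gene covered 71.9% beside 57.9%. Within 1 kb of an end of a protein-coding gene lay 20.7% beside 7.61%. Such an end is a promoter or a terminator, since the gene table gives no strand. A BL-HiChIP loop anchor of any library held 74.8% of the bins beside 32.9%. This difference was present in each BL-HiChIP library taken alone, with 62.9 and 51.3% of the bins on anchors in LW against 59.96 and 45.3% in MS, beside 25.2, 19.6, 22.1 and 16.7% of all bins. Where a loop had to be called in each duplicate of a breed, the shares were 37.7% and 13.0%. BL-HiChIP was not used by the rule, but the bins share RNAs, genes and libraries and are no replicates, so the shares carry no test.

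The anchor share rose from bins of 1 trans RNA to bins of 3 and did not rise further. It was 29.5% at 1 trans RNA, 63.9% at 2, 75.4% at 3, 73.7% at 4 and 68.9% at 5 or more. The share in genes changed less, from 64.8% at 1 to 76.5% at 2 and 73.4% at 5 or more. A gene whose own RNA was listed covered 4.68% of bins with 1 trans RNA and 40.0% of bins with 5 or more, and an RNA of the same chromosome was listed in 2 libraries at 20.5% and 78.7%. Over all 7155 bins these features were found at 29.1% and 63.2%, beside 5.92% and 23.1%. Many-RNA bins thus lay more often in the gene of a listed RNA, and more often met an RNA of their own chromosome.

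**Figure D2:**
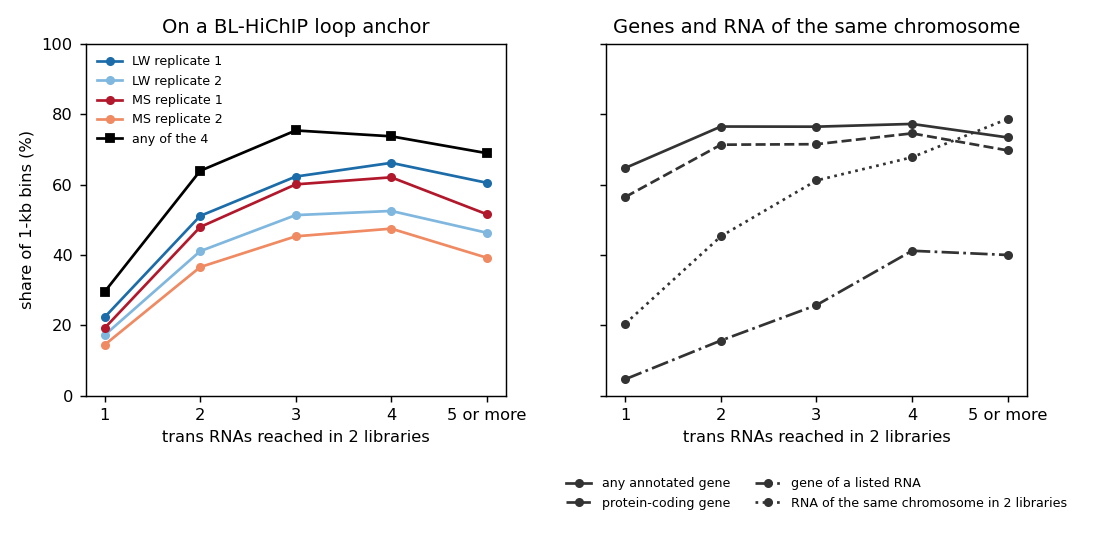
Share of 1-kb bins (%, y axes) against the number of trans RNAs reached in 2 libraries (x axes). Left, bins on a loop anchor of each BL-HiChIP library and of any of the 4, which rise from 29.5% at 1 RNA to 75.4% at 3; right, bins in any annotated gene, in a protein-coding gene, in the gene of a listed RNA (4.68 to 40.0%) and with a listed RNA of the same chromosome in 2 libraries (20.5 to 78.7%).

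Some 64 RNAs were found in trans at these bins, of 144 with any bin on another chromosome. Of the 64, 49 overlapped a protein-coding gene of the RefSeq annotation, 8 an lncRNA and 1 a pseudogene, and 6 had no gene there. Only 17 were found at these bins in all 4 libraries, 29 in 1 library only, 7 in LW libraries only and 27 in MS libraries only. Per library the number was 23 and 32 in LW against 33 and 50 in MS. RNAs with any bin on another chromosome numbered 73 and 88 in LW against 64 and 79 in MS. The split by breed was not made over all 144 RNAs. The MS libraries also supplied most of the bins, so no breed difference is read from these counts. A few RNAs made most of the contacts, since the top 5 accounted for 74.7% of the RNA-bin pairs.

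Among these were TTN, ENSSSCG00000048037, ENSSSCG00000048856 and ENSSSCG00000044834. TTN encodes titin, the giant elastic protein of the sarcomere, and its RNA was listed at 33.0 and 37.8% of the bins off chromosome 15 in LW against 52.5 and 59.5% in MS. ENSSSCG00000048037, which matches the lncRNA LOC102163181 on chromosome 3, was listed at 29.5, 44.4, 70.2 and 38.0%. Its duplicates therefore differed within MS as much as the breeds did. ENSSSCG00000048856 (lncRNA LOC102163816, chromosome 2) was listed at 13.1 and 20.6% in LW against 47.2 and 66.1% in MS. Both MS libraries lay above both LW libraries, and so did its shares of all bins (2.90, 4.33, 6.12 and 10.4%).

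ENSSSCG00000044834, which matches the lncRNA LOC106504325 on chromosome 7, behaved differently from these. It was listed at 22.2 and 19.8% of all bins in LW but at 6.23 and 5.75% in MS. At the many-RNA bins its shares were 15.3, 20.7, 29.8 and 27.5%, so that in the MS libraries it was more frequent there than over all bins. Its trans bins fell on loop anchors at 4.38 and 5.35% in LW against 30.9 and 26.3% in MS.

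A second group was listed mainly in the LW libraries. U4 was found at 13.3 and 21.5% of the bins off chromosome 14 in LW against 2.25 and 3.54% in MS. The RNA of NEB, which encodes a ruler of the thin filament, was found at 11.4 and 16.97% in LW against 3.50 and 6.83% in MS. ASPDH, an aspartate dehydrogenase domain gene whose listed locus overlaps JOSD2, was found at 7.18 and 17.3% in LW against 0.491 and 0.634% in MS. CMTM4, which encodes a membrane protein, went the other way, with 0 and 3.57% in LW against 14.6 and 22.4% in MS. Tx.436, an unnamed transcript on chromosome 6, was listed at 23.5% in MS replicate 2. Tx names are given per library, and the same place on chromosome 6, to within some bases, was listed under other such names at 14.9% in MS replicate 1 and at 1.43% in LW replicate 2. Such entries stand as separate RNAs in the counts above, so the number of RNAs and that of RNAs in 1 library only are upper limits. U4 and U5 have several gene copies, and the reads of such copies cannot be told apart in these lists.

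**Figure D3:**
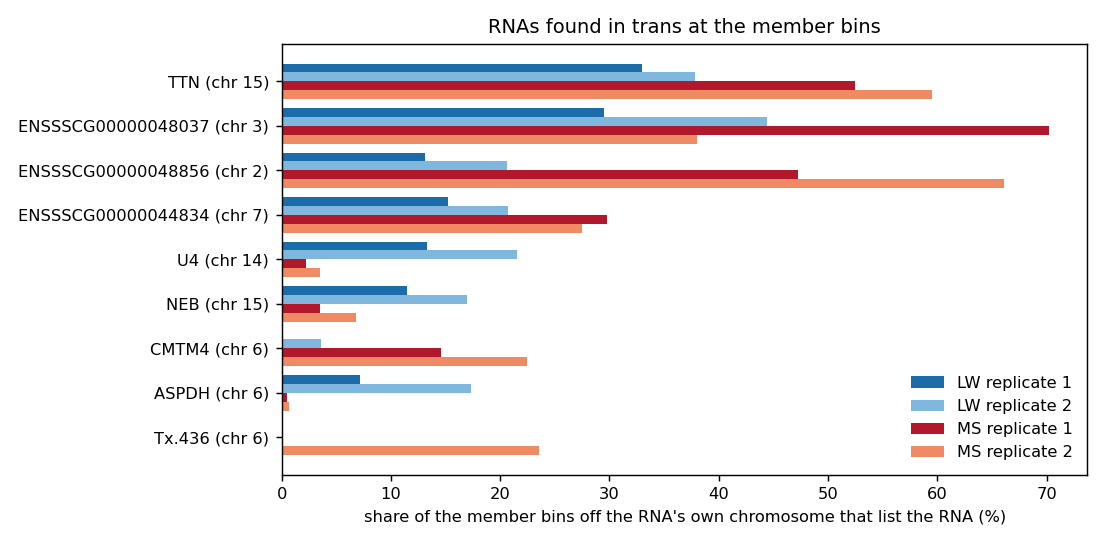
9 of the 10 RNAs found in trans at the most bins (y axis, with the chromosome of the RNA) and the share of the bins off that chromosome at which each was listed (%, x axis), with 1 bar per library. TTN, ENSSSCG00000048856, ENSSSCG00000044834 and CMTM4 have longer bars in both MS libraries, and U4, NEB and ASPDH in both LW libraries.

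TNNT3, the fast skeletal troponin T gene, was the RNA whose trans contacts were mostly at these bins. It had 329 to 684 trans bins per library, and 57.4, 40.8, 63.0 and 58.6% of them met the rule. For U4 the shares were 21.5, 21.7, 50.7 and 36.7%, whereas for TTN, with 88043 to 191138 trans bins per library, they were 1.89 to 2.95%. Both TNNT3 and U4 lay mostly on loop anchors (63.3 to 76.5% and 61.7 to 73.4% of their trans bins). The TNNT3 and U5 values here were chosen after they were seen, and the listed TNNT3 locus overlaps LSP1.

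The RNAs were listed in recurring sets. In MS replicate 1 ENSSSCG00000048037, ENSSSCG00000048856 and TTN were the full set at 269 of the bins (4.89% of those with 3 or more there), and ENSSSCG00000044834, ENSSSCG00000048037 and TTN at 250 (4.55%). In LW replicate 2 the latter set was found at 165 bins (4.90%). LW replicate 1 most often had ENSSSCG00000048037, NEB and TTN, at 75 bins (4.84%). No single set, including those not named here, held more than 12.6% of a library's bins.

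The bins with most RNAs were 10 neighbours between PER1, a gene of the circadian clock, and VAMP2, a vesicle fusion gene, at chr12:53371001-53381000 (Sscrofa11.1). Each had 5 and 7 trans RNAs in LW against 4 and 9 in MS. They belong to a region of 38 bins, chr12:53358001-53416000, with 29 bins on loop anchors, which also covers TMEM107, BORCS6 and AURKB, a mitotic kinase gene. At the bin starting at 53376001 the summed trans signal was 19.2, 37.7, 8.68 and 35.6. ENSSSCG00000048037 and TTN were listed there in all 4 libraries. In MS replicate 2 ENSSSCG00000038561, whose listed locus lies within TTN, was listed there as well and was counted as a separate RNA. U4 carried the largest part in LW, with 10.4 and 20.4, and was not listed there in MS, while in MS replicate 2 TNNT3 reached 9.99 and ENSSSCG00000041901 8.37.

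TTN was the gene with most bins. Its 274 kb on chromosome 15 (84226953 to 84501320) held 236 of them in 2 regions, of which 79 lay on a loop anchor, and 17 trans RNAs were listed there. In the larger region, chr15:84232001-84443000 with 203 bins, the mean summed trans signal was 22.0 and 19.3 in LW against 5.11 and 7.80 in MS, so that the breeds did not overlap. U5 made 10.4 and 8.002 of it in LW, was not listed in MS replicate 1 and gave 2.52 in MS replicate 2. U4 gave 6.83 and 6.50 in LW, 0.449 in MS replicate 2, and was not listed in MS replicate 1. ENSSSCG00000048856 ran the other way, with 1.63 and 1.96 in LW against 3.21 and 3.30 in MS, and covered all 203 bins in both MS libraries. Over TTN, RNA listed as U4 and U5 thus gave most of the trans signal in LW. Because both have several gene copies, whether that RNA came from another chromosome rests on the listed locus and is uncertain.

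NEB, the other very long sarcomere gene on chromosome 15, held 25 bins and none of them on an anchor. Its region of 22 bins had U4 in both LW libraries (2.29 and 3.57 mean signal) and in neither MS library. Neither TTN nor NEB RNA counts at these genes, since each comes from the same chromosome.

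Other contractile and calcium genes met other RNAs. RYR1 encodes the calcium release channel, and its 43 bins (chr6:47384001-47427000, 10 on an anchor) met TNNT3 RNA in all 4 libraries, with a mean signal of 10.8, 5.56, 7.29 and 9.87. The breeds overlapped there. PFKM, the muscle phosphofructokinase RNA, was listed over RYR1 in MS replicate 2 only. At FLNC, the filamin C gene of the Z-disc (chr18:19763001-19805000, 42 bins), the summed signal was 5.39 and 4.14 in LW against 15.7 and 14.1 in MS. TNNT3 was listed there in MS only, with 3.03 and 8.36, and U4 gave 1.33 in LW replicate 1, 4.80 and 2.82 in MS. At ENO3, the muscle enolase gene (chr12:51935001-51981000, 46 bins with PFN1 and 5 other genes), U4 gave 1.13 and 7.17 in LW and was not listed in MS.

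**Figure D4:**
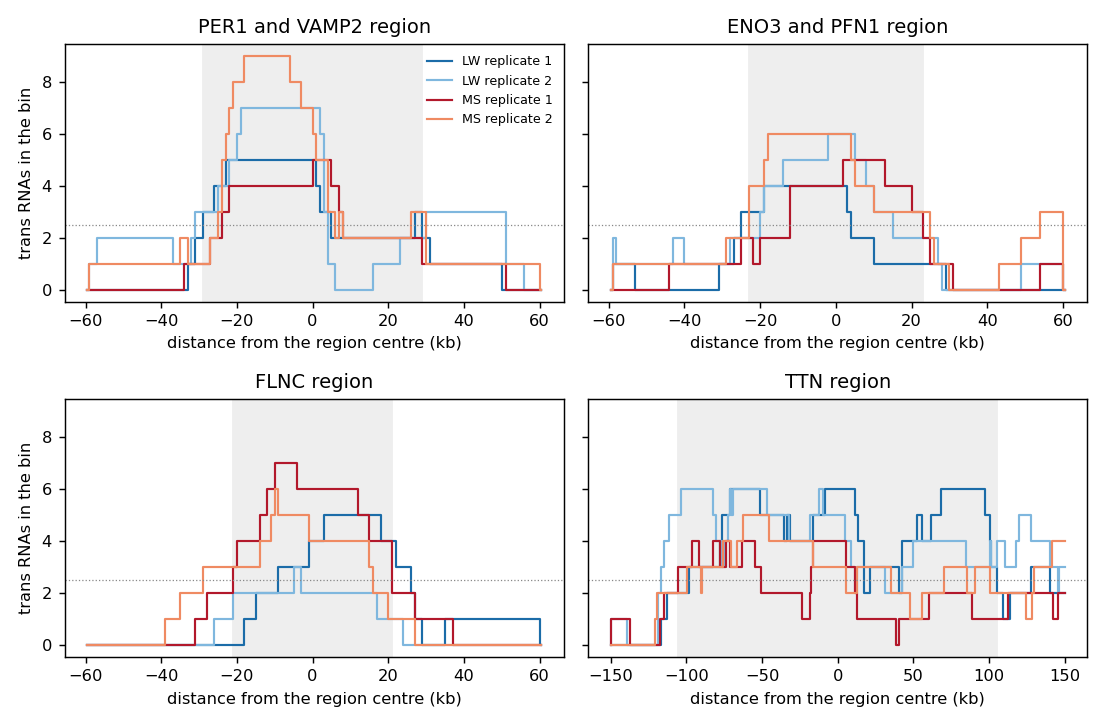
Number of trans RNAs per 1-kb bin (y axis) against the distance from the region centre (kb, x axis) around PER1 and VAMP2, ENO3 and PFN1, FLNC, and TTN, with 1 line per library. The shaded span is the region and the dotted line separates 2 from 3 RNAs; the count peaks at 9 in MS replicate 2 near PER1 and reaches 6 in both LW libraries over TTN.

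After TTN, the genes with most bins were ACTN4 with 58, MAP2K6 with 48, SSH2 with 47, RYR1, ACTN2 and BAIAP2 with 43 each, STAT5B with 42, SLC43A2 with 41 and ZBTB16 with 39. ACTN4 and ACTN2 encode alpha-actinins, which crosslink actin, and MAP2K6 a kinase that activates p38. SSH2 encodes a phosphatase of cofilin, SLC43A2 an amino acid transporter, and STAT5B and ZBTB16 transcription factors. MAP2K6 shows a spread between libraries that is common in these genes, with a mean signal of 1.69 and 3.13 in LW against 3.47 and 9.28 in MS. ACTN4 had 3.20, 3.27, 5.31 and 6.65. STAT5B had 2.76, 2.51, 4.39 and 3.06, a narrower range.

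Of 19550 protein-coding genes 574 (2.94%) held such a bin. Genes with a loop anchor at one of their ends did so at 560 of 12247 (4.57%), genes without at 14 of 7303 (0.192%), and genes that overlapped a listed RNA at 187 of 967 (19.3%). Muscle gene lists were above the share of all genes. The sarcomere and Z-disc list had 16 of 41 annotated members (39.0%), calcium handling and excitation 7 of 23 (30.4%), myogenic and fibre-type regulators 7 of 26 (26.9%), glycolysis and glycogen 6 of 24 (25%) and chromatin and transcription machinery 3 of 25 (12%). Muscle genes are also highly transcribed, and 32 genes of the sarcomere list were themselves listed as chromatin RNAs, so the lists differ from other genes in that as well.

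Within the sarcomere list the members with bins included TTN, NEB, ACTA1, ACTN2, MYH1, MYH2, MYLPF, MYBPC2, TPM1, TPM2, MYOZ1, LDB3, TCAP, DES and FLNC. ACTA1, skeletal alpha-actin, met RNAs evenly, with a mean signal of 8.44 and 7.61 in LW against 7.31 and 7.12 in MS. MYLPF, the fast regulatory light chain, had 11.3, 8.25, 24.2 and 8.06, where MS replicate 1 stood above the rest. TCAP, which caps titin at the Z-disc, had 1.03 and 2.44 in LW against 7.68 and 7.28 in MS. MYBPC2, fast myosin binding protein C, had 4.201 and 12.3 in LW against 0.852 and 1.72 in MS. The bins of TCAP reached 3 trans RNAs in the MS libraries only and those of MYBPC2 in the LW libraries only, so the rule favoured these directions. DES, the desmin gene, met MYBPC2 RNA in MS replicate 1 (7.63 mean signal over its region) and U4 in LW replicate 1 (4.30), and no trans RNA in MS replicate 2.

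In the calcium list the members were RYR1, CACNG1, ATP2A1, CASQ1, JPH1, CAMK2A and SYPL2. CACNG1, a subunit of the calcium channel of the muscle membrane, had 5.34, 4.41, 3.85 and 6.06, with the breeds overlapping. ATP2A1, the fast calcium pump, had 3.42, 12.4, 10.7 and 5.80. In the glycolysis list they were PHKG1, ALDOA, GAPDH, ENO3, PKM and CKM. PHKG1, the catalytic subunit of phosphorylase kinase, ranged from 0.0614 in MS replicate 1 to 19.01 in LW replicate 1. CKM, muscle creatine kinase, had 3.32 and 4.68 in LW against 2.13 and 0.992 in MS, and its region was one of the 8 that reached 3 trans RNAs in LW libraries only. The rule thus favoured higher LW signal at CKM.

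Among the regulators were MYF6, MEF2D, NFATC1, HDAC5, TBX15 and FOXO3, and among the chromatin genes HEXIM1, HEXIM2 and SRSF2. HEXIM1 restrains the elongation factor P-TEFb, and its bins had 2.72 and 3.51 in LW against 7.57 and 13.0 in MS. FOXO3, a transcription factor of the atrophy response, had 0.00537 and 0.243 in LW against 3.65 and 4.45 in MS. MYF6, a myogenic factor, was listed at 0 in LW replicate 1 and had 0.969 in LW replicate 2, 4.73 and 3.16 in MS. The bins of FOXO3 and MYF6 reached 3 trans RNAs in the MS libraries only, so their lower LW signal followed from the choice of bins. From the same lists, 10 sarcomere genes supplied a trans RNA at the bins (among them TTN, NEB, ACTN2, MYBPC1, MYBPC2, TNNT3, TPM1, LDB3 and FLNC), as did ATP2A1 and ATP2A2, PYGM and PFKM, and EYA4. LDB3 and OPN4 were listed with identical reads and cannot be separated.

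The loci that sent the RNAs were mostly not receivers. TTN with 236 bins and NEB with 25 were the exceptions, together with ENSSSCG00000048856, which had 3 bins inside and 46 within 50 kb. No such bin lay in the loci of ENSSSCG00000048037, ENSSSCG00000044834, CMTM4, U4, TNNT3 or Tx.436, and none in ASPDH, which had 22 within 50 kb. RNAs of the receiving chromosome are left out by the rule, so a locus is judged by the RNAs of other chromosomes alone.

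A different kind of place were 32 regions with no loop anchor in any library, 7 of which (228 bins) also had no annotated gene. At the 7, ENSSSCG00000044834 was listed at 93.9 and 82.9% of the bins in LW against 95.6 and 95.2% in MS. ENSSSCG00000048037 was listed at 33.8, 79.8, 75.0 and 73.2%. DSC2, a desmosome gene whose locus overlaps DSC3, was listed at 88.5% of those off chromosome 6 in MS replicate 1 and at none in the other libraries. U4, U5, TNNT3 and ASPDH were at none of the 228 bins in any library. A pair of these regions are neighbours on chromosome 5, chr5:40041001-40096000 and chr5:40140001-40205000, and others are chr9:63366001-63415000, chr17:63374001-63399000 and chr4:46435001-46458000. Both lncRNAs were also listed in the 339 regions with an anchor bin, ENSSSCG00000044834 at 12.2, 18.6, 27.5 and 25.1% and ENSSSCG00000048037 at 29.3, 43.3, 70.6 and 36.9%. These regions were singled out after their values were seen.

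Loops were then read at the regions. Anchors in a region took part in 4.49 and 5.77% of the loops in LW against 5.46 and 6.25% in MS, and the median -log10 of the loop FDR was 4.96, 5.85, 4.65 and 5.92 for them beside 3.84, 4.18, 3.61 and 4.26 for other loops. The loop score of an anchor is the sum of these values over its loops, and its median was taken over the anchors with a loop in that library. For the 1299 anchors that held a many-RNA bin, this median was 14.01 and 17.7 in LW against 12.5 and 16.5 in MS. For all 71411 anchors it was 7.02 and 6.60 in LW against 6.02 and 6.53 in MS. Depending on the library, a loop was present at 60.1 to 83.6% of the 1299 anchors and at 44.3 to 72.8% of all anchors. In each of the 4 libraries, anchors with a many-RNA bin thus more often had a loop. Among anchors with a loop, they also had higher scores in each library.

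Loops joined 65 pairs of regions, 44 of them in 2 or more libraries and 24 in all 4. The region of FSCN2 and ACTG1 was joined to that of BAHCC1, 30 kb away, by 29 loops. Longer joins in all 4 libraries were those of MEF2D with LMNA (320 kb), MYLPF with ALDOA (289 kb) and MYLPF with ATP2A1 (565 kb). SLC2A4, the insulin-responsive glucose transporter, was joined to the FXR2 region over 168 kb, MAP3K14 to HEXIM1 over 76 kb and MYH1 to a region without a gene over 75 kb. The regions of MYLPF, ALDOA and ATP2A1 on chromosome 3 were thus joined by loops.

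Between breeds, no single bin passed the test of its summed trans signal (limma on log2(signal + 1), Benjamini-Hochberg over 463974 bins, 0 called, 0%). At an unadjusted p under 0.05, 95048 bins stood out (20.5%, with 8.23% higher in LW and 12.3% in MS), and 1966 of the 7155 many-RNA bins (27.5%), 403 higher in LW and 1563 in MS. The rule used this signal, and the order of the 2 shares was the reverse with a pseudocount of 0.1 (17.5% beside 28.1%) and with 25-kb tiles (13.6% beside 25.3%), so nothing is read from it. Leaving out MS replicate 1 gave 77541 called bins (742 of the 7155) and leaving out MS replicate 2 gave 81739 (740), where the lone MS library is taken to vary like the LW duplicates. Calls across these bins therefore depended on the libraries included.

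The bins of smallest p were in few regions. In MS they were at BRD2, a bromodomain reader of acetylated histones, at MAP3K14, the kinase of non-canonical NF-kB signalling, and at CDKN2C and FAF1. All of these were listed at 0 in both LW libraries. At the bin chr7:25154001-25155000 in BRD2 the scaled signal was 10.5 and 9.84 in the MS libraries (adjusted p = 0.142, limma). Over the 23 bins of BRD2, ENSSSCG00000048856 and ENSSSCG00000048037 were listed in both MS libraries, PRMT8 and NEB in MS replicate 1, and TTN and CMTM4 in MS replicate 2. In LW the smallest p lay at 5 bins of TTN. At chr15:84321001-84322000 the scaled signal was 45.1 and 49.3 in LW against 5.15 and 4.75 in MS, a log2 difference (MS minus LW) of -3.02 ± 0.19 (SE, limma, adjusted p = 0.142). Neither passed the threshold. The rule used these RNAs, and bins at 0 in both LW libraries met it through the MS libraries alone, so that their separation was fixed by the choice of bins.

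Loop scores gave no call either. Of 71411 anchors 0 were called (limma on quantile-normalized scores, 0%), and 4797 (6.72%) had an unadjusted p under 0.05. Among the 1299 anchors with a many-RNA bin 55 did (4.23%), 26 higher in LW and 29 in MS. Over all anchors 3.5% were higher in LW and 3.22% in MS. The median log2 difference (MS minus LW) was 0.11 for them and -0.04 over all anchors. Without LW replicate 1 the test called 10243 anchors and 78 of the 1299. The anchors of smallest p were at PTP4A2, STAT5B, SLC43A2, PRR30 and in the region of CFL2 for LW, and at FLNC, MLXIP, GPD1, DVL2 with PHF23, and CDIP1 with HMOX2 for MS (adjusted p = 0.635 for each, limma).

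At the PTP4A2 anchor (chr6:88445001-88450000, a tyrosine phosphatase gene) the loop score was 20.6 and 18.3 in LW and was listed at 0 in both MS libraries. The FLNC anchor chr18:19765001-19770000 was listed at 0 in LW and had 10.7 and 7.34 in MS, where FLNC also had the higher trans signal and, below, more RNA. At the SLC43A2 anchor the scores were 33.1 and 19.9 in LW against 2.48 and 0 in MS, while the trans signal of the gene was 2.98 and 0.983 in LW against 7.40 and 5.42 in MS. Loop score and trans signal therefore did not always move together between breeds.

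Loop scores were also read by the libraries that met a region. The 157 regions that reached 3 trans RNAs in MS libraries only held 445 anchors with a median log2 loop score difference of 0.09, beside 0.14 for the 248 anchors of the 35 regions that did so in all 4 libraries. The 8 regions of LW only (at MEF2D, FBXO31, MARK4 with CKM, FCGRT, MYBPC2, NEB, DES and DNTTIP1 with UBE2C) held 20 anchors with a median of 0.47, which is higher in MS. Such a median rests on few anchors and was not tested.

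**Figure D5:**
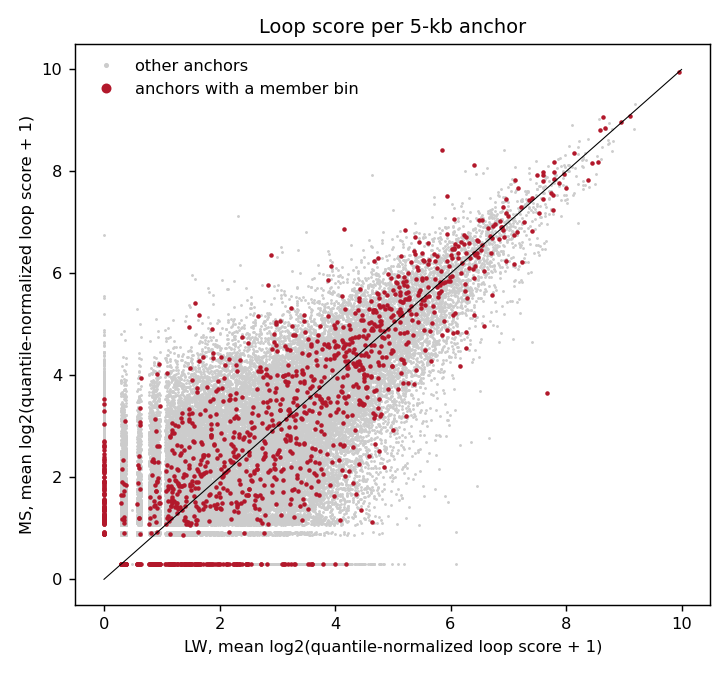
Mean log2(quantile-normalized loop score + 1) of the MS libraries (y axis) against the LW libraries (x axis) per 5-kb anchor, with the 1299 anchors that hold a many-RNA bin in red and other anchors in grey. The red points lie on both sides of the line of equality, with 26 anchors higher in LW and 29 higher in MS at an unadjusted p under 0.05.

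The reads of the RNAs themselves differed between breeds. The rule did not use these counts directly. The signal by which bins were listed is relative to an RNA's own reads, so reads and bins met are not independent. In a bulk sample fewer cells of a type and less RNA per cell cannot be told apart. Of the 64 RNAs at the bins 46 were listed in all 4 libraries and could be tested, and 44 of these passed (edgeR, 24 higher in LW and 20 in MS). Nearly all tested RNAs did so, 267 of 307 (87%), with 136 higher in LW (44.3%) and 131 in MS (42.7%). Scaled to library totals in place of TMM factors, 157 were higher in LW and 100 in MS (25 and 16 of the 46), and the median of all RNAs was -0.12 on the log2 scale. With a difference of over 1.5-fold the counts were 82 of 307 (26.7%) and 16 of 46 (34.8%), 7 higher in LW and 9 in MS. The duplicates of a breed were close, with 68.7% of RNAs in LW and 66.8% in MS differing by no more than counting error at an unadjusted p of 0.05, but they were not identical.

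The RNAs of the LW-rich group were also more abundant in LW. As reads scaled to the total of the tested RNAs (CPM), ASPDH had 13276 and 13254 in LW against 5348 and 5335 in MS (log2 difference -1.31 ± 0.01 SE, edgeR adjusted p = 3.01e-07). U5 had 14060 and 14176 in LW against 4988 and 4955 in MS, a log2 difference of -1.51, and U4 had 16371, 16791, 6463 and 6727, a difference of -1.33. NEB fell from 22528 and 22594 to 13848 and 13877. MBNL1, a splicing regulator outside that group, fell from 19343 and 19322 to 10416 and 10498. Its RNA was listed at 0 and 34 of the bins in LW against 14 and 44 in MS. ENSSSCG00000050060 was also higher in LW, by 0.78 on the log2 scale (1.71-fold). For U4, U5, NEB and ASPDH, reads and the share of bins met thus had the same direction, though these measures are not independent. ZBTB16 went against this, with more reads in LW (log2 difference -0.52). It was listed at 45 and 57 of the bins in LW against 89 and 125 in MS. TTN also went against it, with more reads in LW (log2 difference -0.18). The TTN share of the bins off chromosome 15 was 33.0 and 37.8% in LW against 52.5 and 59.5% in MS.

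Higher in MS were CMTM4 by 0.97 and ENSSSCG00000044834 by 0.84 on the log2 scale. CEP290, a centrosome gene, had 1936 and 1994 in LW against 5716 and 5784 in MS, a difference of 1.55. FLNC had 1215, 1184, 2577 and 2614 (1.11), ENSSSCG00000039473 differed by 1.02, NRAP, a protein of myofibril assembly, by 0.82 and ATP2A1 by 0.59. ENSSSCG00000048856 differed by 0.26 and TTN by -0.18. The adjusted p of the RNAs given here ran from 3.01e-07 to 0.000979 (edgeR). ENSSSCG00000044834 had more reads in MS (235072 and 237503 against 131379 and 131813) but fewer trans bins there (44248 and 42885 against 223431 and 191755). Reads per RNA and the number of bins it met were thus not interchangeable.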

How the data were processed

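GRID-seq and H3K27ac BL-HiChIP tables of 8 libraries (LW and MS, 2 each per assay) were used. The GRID-seq samples of the RNA side were not analysed here. Per the deposited lists, each GRID-seq row gives an RNA, its read counts and the background-corrected signal of a 1-kb bin, made by the authors by the published GRID-seq method; names of the columns are inferred from their values. The authors called loops per library with FitHiChIP at 5 kb, and the deposited p-value of a loop is its FDR (all under 0.01). The submitters' processing notes name Trim Galore 0.4.5, Bowtie2 2.2.5, SAMtools 1.9 and MACS2 2.1.2, with builds Sscrofa11.1 and mm10. Coordinates are 1-based on Sscrofa11.1, and genes are from RefSeq on that assembly. Repeated rows, all of TTN, were summed. No batch is given in the labels.

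Groups were taken from the sample titles. Summed trans signal per bin (scaled to the median library sum, log2(signal + 1)) and loop score per anchor (quantile-normalized, log2(score + 1)) were tested with limma 3.58.1, and RNA reads with edgeR 4.0.16 (quasi-likelihood, TMM, RNAs listed in all 4 libraries), in R 4.3.3. P-values are two-sided and were adjusted by Benjamini-Hochberg over all features, with a threshold of 0.05. An exact permutation test of 2 against 2 libraries cannot go below 0.333, so single values carry no p. Scripts were tested on simulated data. DESeq2 1.42.0, other scalings, pseudocounts, filters and libraries left out were alternatives. The 25-kb tiles and the alternatives for chromosome 12 were chosen after seeing the data.

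Named were the 10 RNAs found in trans at most bins, the 10 bins meeting the rule in most libraries (then by RNAs and signal), the 10 genes with most bins, the 5 features of smallest p per direction and test, and members of fixed gene lists. A list of nuclear noncoding RNAs had 1 annotated gene and no bin. Members and lists were chosen with earlier results of these data known. Promoter sequences were not analysed here, and some items that this rule names are not reported here.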

Additional observations from a re-analysis of the deposited data

How the results depend on the processing

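The number of bins was 1572 with 4 or more RNAs, 43665 with 2 or more, 1683 in at least 3 libraries, 338 in all 4, 3743 without ENSSSCG00000048037, and 2859 to 6442 with a library left out. With RNAs of the same annotated gene counted once it was 7058. The share in genes was 71.9% for protein-coding genes and 90.1% within 5 kb (75.3 to 76.3% with a library left out). The anchor share was 37.7% for loops of both libraries of a breed, 69.7% at an FDR of at most 0.001, 92.8% within 5 kb, and 68.7 to 75.2% with a library left out (71.4% without MS replicate 2 of GRID-seq, 68.7% without LW replicate 1 and 70.4% without MS replicate 1 of BL-HiChIP). The share on chromosome 12 was 34.8% with 4 or more RNAs, 22.1% as regions, and 27.4 to 36.5% with a library left out.

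With a library left out, trans signal calls ranged from 0 to 81739 (0 to 742 at the many-RNA bins), loop score calls from 0 to 10243 (0 to 78) and RNA read calls from 250 to 261 (43 to 44). No named bin, anchor or RNA changed direction in any setting, and 14 results of named bins and 4 of named anchors passed only with a library left out. The cause was not tested.

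The labels do not say that a replicate number marks a shared animal or batch, and with 2 numbers per test no pairing was assumed. With a replicate block, loop score gave 87 calls (0 at many-RNA bins) and RNA reads 277 (45), while trans signal gave 0. Deviations of libraries with the same number correlated at -0.0066 for trans signal, 0.249 for loop score and 0.939 for RNA reads, where libraries of 1 number deviated together, a hint from the data and not from the design. The comparisons are limited by 2 libraries a breed, and a bin not listed in a library may still hold contacts under the signal limit of its depth.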

Other observations

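Some RNAs differed between the duplicates in both breeds. ENSSSCG00000048037, ABHD17A, LARP4, MTIF3 and PACSIN2 differed between the duplicates by over 10 counting errors in LW and in MS, and were 5 of the 5 such RNAs in LW and 5 of the 10 in MS. ENSSSCG00000048037 had 47360 and 54872 CPM in LW and 64180 and 77651 in MS, the higher value in replicate 2 each time. Both MS values also lay above both LW values (log2 difference 0.47, edgeR adjusted p = 0.0187). DSC2 was listed with 56649 reads in LW replicate 1 and 95526 in MS replicate 1 and was not listed in either replicate 2. In MS replicate 1 it was listed at 472 of the many-RNA bins, and in LW replicate 1 at 54.

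ICAM2, chosen after its values were seen and whose listed locus overlaps ERN1, was listed at 146 of the bins in MS replicate 2 only.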
